A study of Mus musculus with 28 samples.

Results

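The genes described here encode the proximal T cell receptor (TCR) signalling machinery of CD8+ T cells that had infiltrated a mouse tumour. They were chosen as a named list of 43 genes: 26 that carry the signal forward, 13 that restrain it, and 4 with mixed roles (Cd6, Ptprc, Themis and Sh2d2a). The bulk tables of the subset and treatment experiments name 21610 and 20603 genes, and the table of single cells holds 27933, with all 43 present in each. After the filter on low counts, 12388 genes of the subset experiment and 12710 of the treatment experiment were tested, again with all 43 listed genes among them.

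All cells came from MC38-OVA tumours, a colon carcinoma line carrying ovalbumin as a model antigen, in wild type C57BL/6 mice. The subset experiment divided tumour-infiltrating lymphocytes (TILs) that were CD8+ and PD-1- into 3 sorted groups, for which the labels name no antibody treatment: naive-like (CD62LhiSlamf7-CX3CR1-, 6 libraries), memory-like (CD62L-Slamf7hiCX3CR1-, 5 libraries) and effector-like (CD62L-Slamf7hiCX3CR1+, 3 libraries). The treatment experiment took Tim-3-PD-1- cells (called double-negative, DN, below) and Tim-3+PD-1+ cells (double-positive, DP) on day 12 after implantation. Its mice had received either isotype antibody or blockade of both PD-1 and Tim-3, and each of its 4 groups had 3 libraries. A further pair of droplet single-cell libraries, 1 per treatment, held DN cells of the same tumour model. Bulk libraries came from lysates of about 2000 cells each. Library names list several numbers for 2 of the 3 effector-like libraries, and the number of the third recurs in one of these, so that those libraries may not be fully separate. Nothing in the labels states which libraries came from separate animals, so p-values measure the spread between libraries only.

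Engagement of the TCR lets the kinase Lck phosphorylate the CD3 and zeta chains, which then recruit Zap70. Zap70 phosphorylates the scaffolds LAT and SLP-76 (encoded by Lat and Lcp2), and from this assembly phospholipase C gamma, Ras exchange factors, protein kinase C theta and the Bcl10-Malt1 complex carry the signal to NFAT, NF-kB and MAP kinases. Phosphatases, diacylglycerol kinases, ubiquitin ligases and adaptors that remove receptors restrain the same steps, and in tumours CD8+ T cells meet their antigen for long periods, with PD-1 and Tim-3 as well known markers of that state.

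Promoter sequences are shown for the 3 genes with the largest bulk differences between DP and DN cells (Rasgrp2, Ubash3b and Dgka) and for Ubash3a, the paralogue of Ubash3b. Each runs from 250 bases before to 50 bases after the first start that RefSeq lists for the gene (mouse build GRCm38.p6), 300 bases in all, read 5′ to 3′ on the strand of the gene. Capitals mark exact matches, on either strand, to 5 motifs: TGGAAA for NFAT, TGANTCA for AP-1, TGTGGT for RUNX, CCGGAAG for ETS and GGGCGGG for KLF and SP factors. The matches shown do not overlap each other.
Ubash3a (chr17:31207816-31208115, plus strand): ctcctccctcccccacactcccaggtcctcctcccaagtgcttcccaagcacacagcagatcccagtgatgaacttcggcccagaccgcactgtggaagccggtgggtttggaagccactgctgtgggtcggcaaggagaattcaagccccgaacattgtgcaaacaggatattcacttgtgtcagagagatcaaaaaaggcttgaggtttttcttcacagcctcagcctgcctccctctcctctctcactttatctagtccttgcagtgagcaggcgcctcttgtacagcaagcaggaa
Ubash3b (chr9:41158013-41158312, minus strand): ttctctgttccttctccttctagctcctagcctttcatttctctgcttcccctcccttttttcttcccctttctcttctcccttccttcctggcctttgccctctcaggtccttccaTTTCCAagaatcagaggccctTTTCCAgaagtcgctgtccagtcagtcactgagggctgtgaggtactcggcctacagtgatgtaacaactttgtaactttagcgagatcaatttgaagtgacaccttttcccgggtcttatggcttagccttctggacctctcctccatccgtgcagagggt
Dgka (chr10:128745035-128745334, minus strand): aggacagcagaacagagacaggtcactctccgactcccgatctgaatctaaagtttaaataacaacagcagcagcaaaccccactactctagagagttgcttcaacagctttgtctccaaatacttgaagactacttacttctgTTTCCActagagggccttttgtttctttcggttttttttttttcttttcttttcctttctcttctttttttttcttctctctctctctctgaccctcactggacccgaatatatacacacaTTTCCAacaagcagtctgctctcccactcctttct
Rasgrp2 (chr19:6399625-6399924, plus strand): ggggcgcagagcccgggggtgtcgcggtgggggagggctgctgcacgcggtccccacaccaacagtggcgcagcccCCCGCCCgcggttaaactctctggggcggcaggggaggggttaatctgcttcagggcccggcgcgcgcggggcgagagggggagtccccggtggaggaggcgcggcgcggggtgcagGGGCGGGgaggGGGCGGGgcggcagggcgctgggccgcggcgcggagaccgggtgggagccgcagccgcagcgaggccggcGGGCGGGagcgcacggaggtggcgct
The NFAT letters were found 2 times each in the Ubash3b and Dgka windows, and the KLF letters 4 times in the Rasgrp2 window, whose GC content was 80.0%. None of the 5 motifs was found in the Ubash3a window. Of 27025 promoter windows of the same length, 21.5% held the NFAT letters and 25.8% the KLF letters. Among the 35 listed genes with a window in the RefSeq table, 8 (22.9%) held the NFAT letters and 10 (28.6%) the KLF letters, so that neither share stood far from that of all promoters. The RUNX letters were in 4 of the 35 (11.4%, against 16.9% of all promoters) and the ETS letters in 1 (2.86%, against 9.12%). AP-1 letters were in 0 of the 35, against 7.93%. These differences were not tested.

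Library totals ran from 5027112 to 7978200 counts in the subset experiment and from 8005818 to 13579262 in the treatment experiment. The 43 genes took 1.06 to 1.61% of the counts in the first and 0.969 to 1.28% in the second, while the ribosomal precursor Rn45s alone took 10.7 to 20.7%. Transcripts of 2 sort markers followed the labels: Cx3cr1 averaged 308 CPM (counts scaled to a common library size) in effector-like cells against 12.7 and 1.61 in memory-like and naive-like cells, and Havcr2 (Tim-3) averaged 274 in DP against 3.91 in DN cells under isotype. The libraries also held transcripts of other cells. The summed level of 11 plasmacytoid dendritic cell (pDC) markers lay between 2236 and 3303 CPM for DN cells given isotype and between 1393 and 2116 CPM for those given blockade. For DP cells it lay between 405.0 and 407 CPM under isotype, and between 493 and 586 CPM under blockade. The listed gene Ccr9 also led a T cell cluster in the single-cell data, so the sum does not measure pDCs alone.

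Levels of different genes were compared on the deposited normalized signal, whose ratio to the counts followed transcript length across genes (Spearman correlation 0.658 in the subset experiment). In the subset experiment Lck, the kinase that starts the cascade, stood first at a signal of 536 (mean of the group means), followed by Cd8b1 at 522, Cd3g at 434, Ptprc (the CD45 phosphatase) at 413 and Cd3d at 358. In the treatment experiment the first 5 were the same genes in another order, with Cd3g at 565, Cd8b1 at 554, Lck at 445, Cd3d at 363 and Ptprc at 283. The Ras exchange factor Sos1 was last of the 43 in both, at 2.01 and 1.83. In bulk samples, fewer cells of a type and less RNA per cell cannot be told apart, which holds for every bulk value below.

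The first comparison set effector-like against memory-like cells, both Slamf7hi and separated by CX3CR1. Of the 43 genes, Rasgrp2 rose in effector-like cells, and Cd3d, Ptpn6 and Dgka fell. These 4 passed edgeR's quasi-likelihood test at a Benjamini-Hochberg adjusted p under 0.05, taken over all genes tested. This was 9.3% of the list, against 1.91% of all genes tested in that comparison (0.484% higher and 1.43% lower). The median log2 difference was -0.045 over the list and 0.0098 over all genes. By class, 2 of 26 activating, 2 of 13 negative and 0 of 4 mixed genes passed. Of 9 listed markers of natural killer and gamma-delta T cells, 5 were present and tested. They summed to 1549 to 1725 CPM in effector-like, 257 to 415 CPM in memory-like and 92.3 to 171 CPM in naive-like libraries. In effector-like cells 1 of the 5 was higher than in memory-like and 2 were higher than in naive-like cells. The listed genes Gzma, Klrb1c and Klre1 also led T cell clusters in the single-cell data, so the sum does not measure other cells alone. The part of these markers in the differences from effector-like cells was not tested.

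Rasgrp2 encodes an exchange factor, regulated by calcium and diacylglycerol, that acts mainly on Rap GTPases. Its levels were 60.6, 51.2 and 66.4 CPM in the effector-like libraries and 12.9, 14.2, 11.9, 22.2 and 17.9 CPM in the memory-like libraries. Every effector-like library was above every memory-like library, with a log2 difference of 1.91 ± 0.28 (SE, adjusted p = 0.00144). Ptpn6 encodes the phosphatase SHP-1, which dampens proximal kinases. It stood at 158, 158 and 167 CPM in effector-like and 291, 384, 335, 273 and 384 CPM in memory-like libraries, again without overlap, and the log2 difference was -1.05 ± 0.18 (SE, adjusted p = 0.00487). In the single-cell data described at the end, Ptpn6 reached 422 CPM in pDC-like cells against 83.0 to 182 CPM in the T cell clusters. The pDC markers summed to 196 to 297 CPM in effector-like and 563 to 2321 CPM in memory-like libraries, and 2 of 11 were lower in effector-like cells. Their part in the Ptpn6 difference was not tested.

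Cd3d encodes the CD3 delta chain. It was 321, 298 and 393 CPM in effector-like against 609, 575, 547, 612 and 439 CPM in memory-like libraries, and the groups did not overlap. The log2 difference was -0.72 ± 0.14 (SE, adjusted p = 0.0166), whereas Cd3e and Cd3g, which encode its partner chains, differed by 0.13 and -0.39 and did not pass. Dgka encodes diacylglycerol kinase alpha, which removes the diacylglycerol that activates Ras exchange factors. It was 266, 265 and 392 CPM in effector-like and 488, 583, 449, 590.4 and 476 CPM in memory-like libraries, without overlap, for a log2 difference of -0.75 ± 0.18 (SE, adjusted p = 0.0463). The Cd3d and Dgka calls were both lost when effector-like library 1 or 2 was left out, which reduced the count of called genes from 4 to 2, and the Dgka call was lost under 13 of 21 alternatives.

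The second comparison set effector-like against naive-like cells. Cd8a, Cd8b1, Cd6 and Sh2d2a rose and Cd3d, Txk, Dgka, Bcl10 and Cblb fell in effector-like cells. These 9 genes were 20.9% of the list, against 6.42% of all genes tested (2.62% higher and 3.79% lower). By class, 5 of 26 activating, 2 of 13 negative and 2 of 4 mixed genes passed, and the negative pair (Dgka and Cblb) both fell. The list's median log2 difference was 0.040, beside 0.041 over all genes. Of 9 dendritic cell markers 2 were higher in effector-like cells, with summed levels of 517 to 1883 CPM against 4.73 to 599.8 CPM, and 1 of 14 myeloid markers was lower; their part in these differences was not tested. Naive-like library names bear a different date from those of the remaining 2 groups, so the date and the subset cannot be told apart in this and the next comparison.

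Dgka showed the largest difference of the 9. It was 266, 265 and 392 CPM in the effector-like libraries and ranged from 664 to 1139.9 CPM with a median of 1016 over the 6 naive-like libraries. The ranges were far apart, and the log2 difference was -1.66 ± 0.19 (SE, adjusted p = 3.09e-05). Bcl10, which acts with Malt1 to activate NF-kB, was 68.7, 68.5 and 80.6 CPM in effector-like libraries and ranged from 117 to 147 CPM with a median of 131 in naive-like libraries. All effector-like values of Bcl10 lay below the naive-like range, with a difference of -0.85 ± 0.16 (SE, adjusted p = 0.00359). Cblb, a ubiquitin ligase that limits signalling without costimulation, was 178, 158 and 175 CPM against a naive-like range from 227 to 358 CPM with a median of 263. These values did not overlap either, and the log2 difference was -0.69 ± 0.13 (SE, adjusted p = 0.00477).

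The Tec family kinase gene Txk stood at 124, 134 and 169 CPM in effector-like libraries and ranged from 189 to 265 CPM with a median of 216 in naive-like libraries. The difference was -0.66 ± 0.16 (SE, adjusted p = 0.0174), with no overlap. Cd3d differed by -0.54 ± 0.14 (SE, adjusted p = 0.0280), also with no overlap, its naive-like libraries ranging from 394 to 561 CPM with a median of 500.4. Among the genes that rose, Sh2d2a (the Lck-binding adaptor TSAd) was 717, 770.1 and 1139 CPM in effector-like libraries against a naive-like range from 414 to 613 CPM with a median of 502. Its difference was 0.79 ± 0.15 (SE, adjusted p = 0.00449), and every effector-like library was above that range. Cd6, a scavenger receptor family member with reported activating and inhibitory roles, was 373, 485 and 701 CPM against a range from 271 to 345 CPM with a median of 305. It differed by 0.76 ± 0.17 (SE, adjusted p = 0.0142) without overlap.

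Both coreceptor genes were higher in effector-like cells. Cd8a was 547, 599 and 793 CPM in effector-like libraries and ranged from 423 to 490.4 CPM with a median of 461 in naive-like libraries, a difference of 0.50 ± 0.12 (SE, adjusted p = 0.0196) without overlap. Cd8b1 was 903, 700.2 and 964 CPM against a range from 455 to 722 CPM with a median of 598, and here the groups overlapped. Its difference was 0.54 ± 0.15 (SE, adjusted p = 0.0404), and the call was lost under 10 of 21 alternatives. The Cd3d call was lost under 6 of these, among them leaving out effector-like library 1 or 2, and Txk lost its call on leaving out either of the same libraries. Cd8a and Cd6 lost theirs when effector-like library 3 was left out.

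The third comparison set memory-like against naive-like cells. Cd8a and Sla rose, and Rasgrp2, Dgka and Bcl10 fell. These 5 genes were 11.6% of the list, against 5.51% of all genes tested (2.78% higher and 2.73% lower), with 3 of 26 activating, 2 of 13 negative and 0 of 4 mixed genes among them. Of the pDC markers 4 of 11, and of the CD4+ T cell markers 4 of 7, were also higher in memory-like cells, and their part in these differences was not tested. The list's median was 0.011, beside -0.0065 over all genes. The comparisons between subsets share libraries, so their values are given side by side and not as independent results.

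Rasgrp2 ranged from 23.2 to 54.04 CPM with a median of 40.4 in naive-like libraries, above all the memory-like values given earlier, for a log2 difference of -1.31 ± 0.24 (SE, adjusted p = 0.00588). Effector-like and naive-like cells did not differ by the test in this gene, the difference being 0.60 ± 0.27 (SE, adjusted p = 0.239). Memory-like cells were therefore the low group for Rasgrp2. Dgka, by contrast, was stepwise: it was lowest in effector-like, intermediate in memory-like and highest in naive-like cells, and its memory-like against naive-like difference was -0.91 ± 0.15 (SE, adjusted p = 0.00273). Bcl10 was 77.2, 59.04, 90.1, 86.8 and 100.1 CPM in memory-like libraries, below the naive-like range, with a difference of -0.67 ± 0.13 (SE, adjusted p = 0.00897). Cd8a was 747, 657, 570.1, 743 and 754 CPM in memory-like libraries, above all naive-like values, with a difference of 0.60 ± 0.11 (SE, adjusted p = 0.00383). Sla encodes an adaptor (SLAP) that promotes removal of the receptor complex. It was 503, 443, 419, 528 and 537 CPM in memory-like libraries and ranged from 282 to 364 CPM with a median of 319 in naive-like libraries, without overlap, for a difference of 0.60 ± 0.12 (SE, adjusted p = 0.00742).

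**Figure D1:**
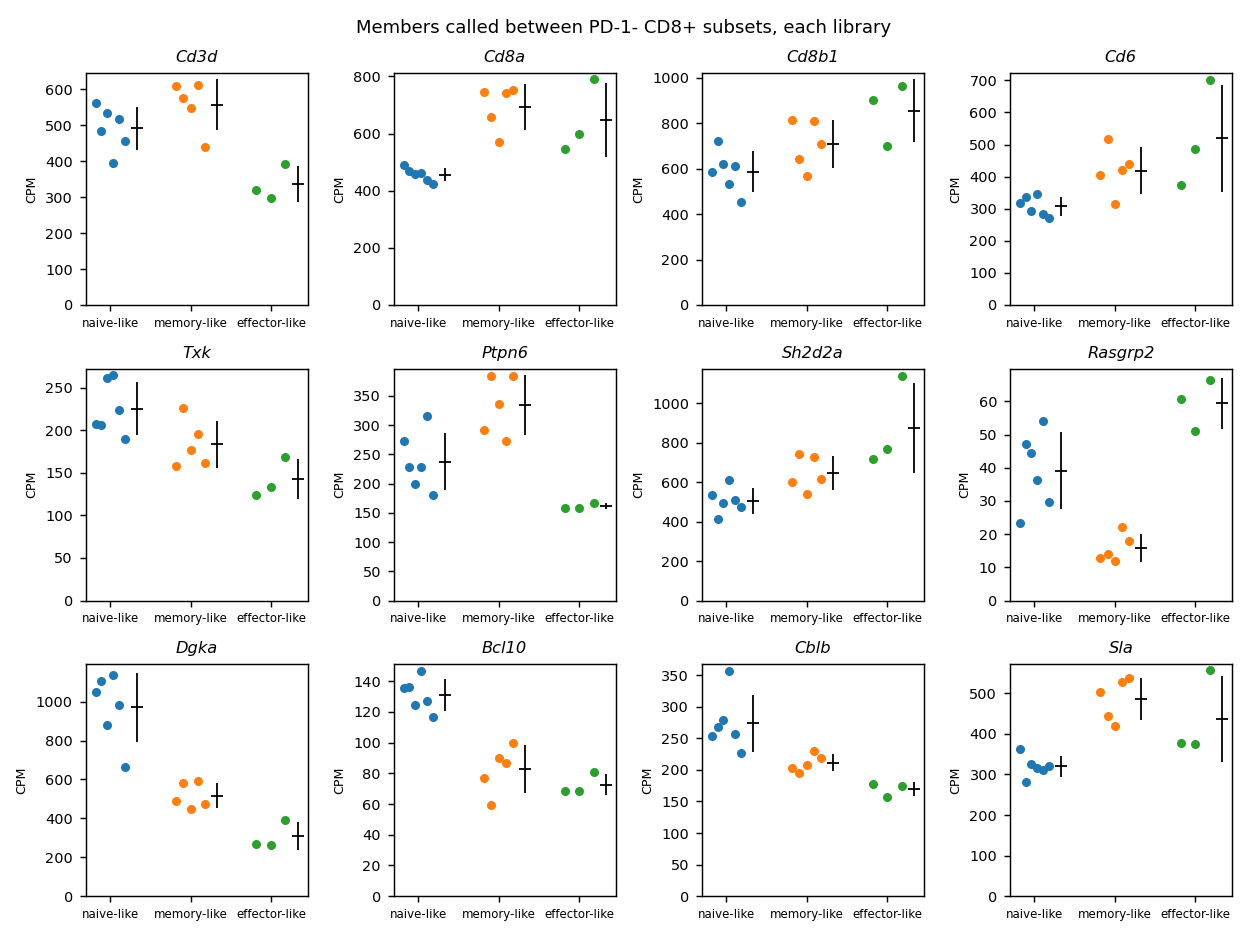
CPM in each of the 14 subset libraries for listed genes that passed a subset comparison. Each point is 1 library and the bar beside each group is its mean ± SD; Dgka separates the 3 groups, and Rasgrp2 is lowest in memory-like libraries.

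Tim-3+PD-1+ (DP) cells were then compared with Tim-3-PD-1- (DN) cells of isotype-treated mice. Of the receptor complex Cd3e, Cd3g and Cd8a (3 of 6 genes), and further along Zap70 and the Ubash3 pair, rose in DP cells, while Rasgrp2, Dgka, Txk and Fyn fell. In all, 21 of 43 genes passed, 10 higher and 11 lower. That was 48.8% of the list, against 29.9% of all genes tested (15% higher and 14.8% lower). By class, 5 activating genes rose and 7 fell, 2 negative genes rose and 4 fell, and 3 mixed genes rose, so that neither activators nor negative regulators moved as a class in 1 direction. The list's median was -0.096, beside 0.0026 over all genes. Over the whole list, whether a gene passed or not, the DP and DN libraries did not overlap for 12 genes higher and 13 genes lower in DP cells, against 22.3% and 21.6% of all genes tested. The sort itself used PD-1 and Tim-3, which are not in the list.

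Among the receptor genes, Cd3g (CD3 gamma) was 353, 430.0 and 351 CPM in DN and 746, 599 and 783 CPM in DP libraries, and rose by 0.91 ± 0.13 (SE, adjusted p = 0.000306). Cd3e was 290.5, 325 and 216 CPM in DN and 381, 359 and 423 CPM in DP libraries, a difference of 0.48 ± 0.13 (SE, adjusted p = 0.0165). The Cd3e call was lost without DP isotype library 3. Cd8a was 471, 574 and 437 CPM in DN and 710.0, 645 and 762 CPM in DP libraries, differing by 0.51 ± 0.12 (SE, adjusted p = 0.00731). Other members of the receptor complex (Cd3d, Cd247 and Cd8b1) did not pass, with log2 differences of 0.22, -0.19 and 0.18. The accessory receptor gene Cd6 was 343, 395 and 412 CPM in DN and 467, 565 and 490.3 CPM in DP libraries, a difference of 0.40 ± 0.098 (SE, adjusted p = 0.00773).

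The proximal kinases diverged. Zap70 was 182, 199 and 166 CPM in DN and 285, 285 and 329 CPM in DP libraries, and rose by 0.72 ± 0.099 (SE, adjusted p = 0.000179). Fyn, a Src family kinase related to Lck, was 76.8, 104 and 70.1 CPM in DN and 42.9, 39.9 and 40.4 CPM in DP libraries, and its log2 difference was -1.03 ± 0.17 (SE, adjusted p = 0.000799). Txk was 98.2, 136 and 89.2 CPM in DN and 53.4, 41.7 and 38.2 CPM in DP libraries, a difference of -1.28 ± 0.19 (SE, adjusted p = 0.000338). Thus Zap70 was high in DP libraries where Fyn and Txk were low. Csk, which phosphorylates the inhibitory tyrosine of Lck, was 147, 165 and 143 CPM in DN and 102, 102 and 121 CPM in DP libraries, a difference of -0.48 ± 0.10 (SE, adjusted p = 0.00370). Lck itself differed by 0.14 and did not pass.

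Among adaptors, Lcp2 (SLP-76) was 211, 247 and 196 CPM in DN and 303, 292 and 312 CPM in DP libraries, differing by 0.47 ± 0.11 (SE, adjusted p = 0.00523). Themis, an adaptor best known from thymocyte selection, was 148, 167 and 119 CPM in DN and 243, 224 and 247 CPM in DP libraries, differing by 0.72 ± 0.14 (SE, adjusted p = 0.00198). Sh2d2a was 516, 547 and 506 CPM in DN and 861, 735 and 771 CPM in DP libraries, differing by 0.59 ± 0.086 (SE, adjusted p = 0.000243). These adaptors were all higher in DP cells, whereas Nck1, which links the receptor to actin, was lower. Nck1 was 46.98, 44.9 and 49.4 CPM in DN and 36.8, 31.00 and 34.3 CPM in DP libraries, a difference of -0.47 ± 0.12 (SE, adjusted p = 0.00893).

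The largest differences of the list lay in the Ras and diacylglycerol step and in Ubash3b. Rasgrp2, whose promoter window held the KLF letters, was 31.4, 40.8 and 27.4 CPM in DN and 6.88, 8.35 and 6.11 CPM in DP libraries. Its log2 difference was -2.22 ± 0.20 (SE, adjusted p = 8.53e-06), negative values being lower in DP cells. Dgka was 530.2, 679.6 and 517 CPM in DN and 236, 196 and 237 CPM in DP libraries, a difference of -1.37 ± 0.12 (SE, adjusted p = 4.54e-06). An exchange factor and an enzyme that limits exchange factors were therefore both low in DP cells. Rasgrp1, the main Ras exchange factor of T cells, differed by 0.19 and did not pass.

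In the NF-kB and NFAT branch, Prkcq (protein kinase C theta) was 218, 282 and 218 CPM in DN and 174, 168 and 194 CPM in DP libraries, a difference of -0.42 ± 0.10 (SE, adjusted p = 0.00861). Bcl10 was 87.5, 101 and 91.5 CPM in DN and 76.5, 68.2 and 69.97 CPM in DP libraries, a difference of -0.38 ± 0.10 (SE, adjusted p = 0.0126), and its call was lost without DN isotype library 2 or DP isotype library 2. Nfatc3, a calcium-regulated transcription factor, was 92.2, 102 and 71.5 CPM in DN and 48.6, 64.1 and 62.7 CPM in DP libraries, a difference of -0.60 ± 0.15 (SE, adjusted p = 0.0107). All 3 were lower in DP cells. The Nfatc3 call was lost without DP isotype library 1.

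The regulators of receptor turnover split. Ubash3b (STS-1), a phosphatase that acts on Zap70, was 20.1, 19.4 and 19.9 CPM in DN and 65.5, 57.4 and 65.7 CPM in DP libraries, and rose by 1.67 ± 0.11 (SE, adjusted p = 7.78e-07). Its paralogue Ubash3a (STS-2), with weaker phosphatase activity, was 123, 144 and 128 CPM in DN and 211, 184 and 241 CPM in DP libraries, and rose by 0.69 ± 0.13 (SE, adjusted p = 0.00179). The ubiquitin ligase gene Cbl went the other way, at 107, 96.7 and 82.3 CPM in DN and 42.3, 59.5 and 58.8 CPM in DP libraries, a difference of -0.83 ± 0.16 (SE, adjusted p = 0.00193). Sla2 (SLAP-2), an adaptor that recruits Cbl, was 127, 175 and 121 CPM in DN and 94.3, 75.3 and 91.5 CPM in DP libraries, a difference of -0.70 ± 0.14 (SE, adjusted p = 0.00293).

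Several of these genes were also found in other cells. In the single-cell data, pDC-like cells exceeded every T cell cluster for Fyn (165 CPM against 47.7 to 117) and Sla2 (141 CPM against 16.7 to 91.6), with 95% counting intervals of 118 to 224 and 98.0 to 196 CPM. For Cbl the pDC-like value was 56.3 CPM, but its interval, 30.8 to 94.4 CPM, included the highest T cell cluster (35.7). Myeloid-like cells exceeded every T cell cluster for Ubash3b (64.2 CPM, interval 43.3 to 91.7, against 8.34 to 26.3). In bulk, 11 of 11 pDC markers were lower in DP than in DN isotype libraries, with a median log2 difference of -7.02, while 5 of 15 myeloid markers were higher and 3 lower. Of 7 markers of CD4+ T cells, 6 were higher and 1 was lower in DP cells. Tnfrsf4, among the 6, is also on the list of early TCR-induced genes given below. Their part in the differences of Fyn, Cbl, Sla2 and Ubash3b was not tested.

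**Figure D2:**
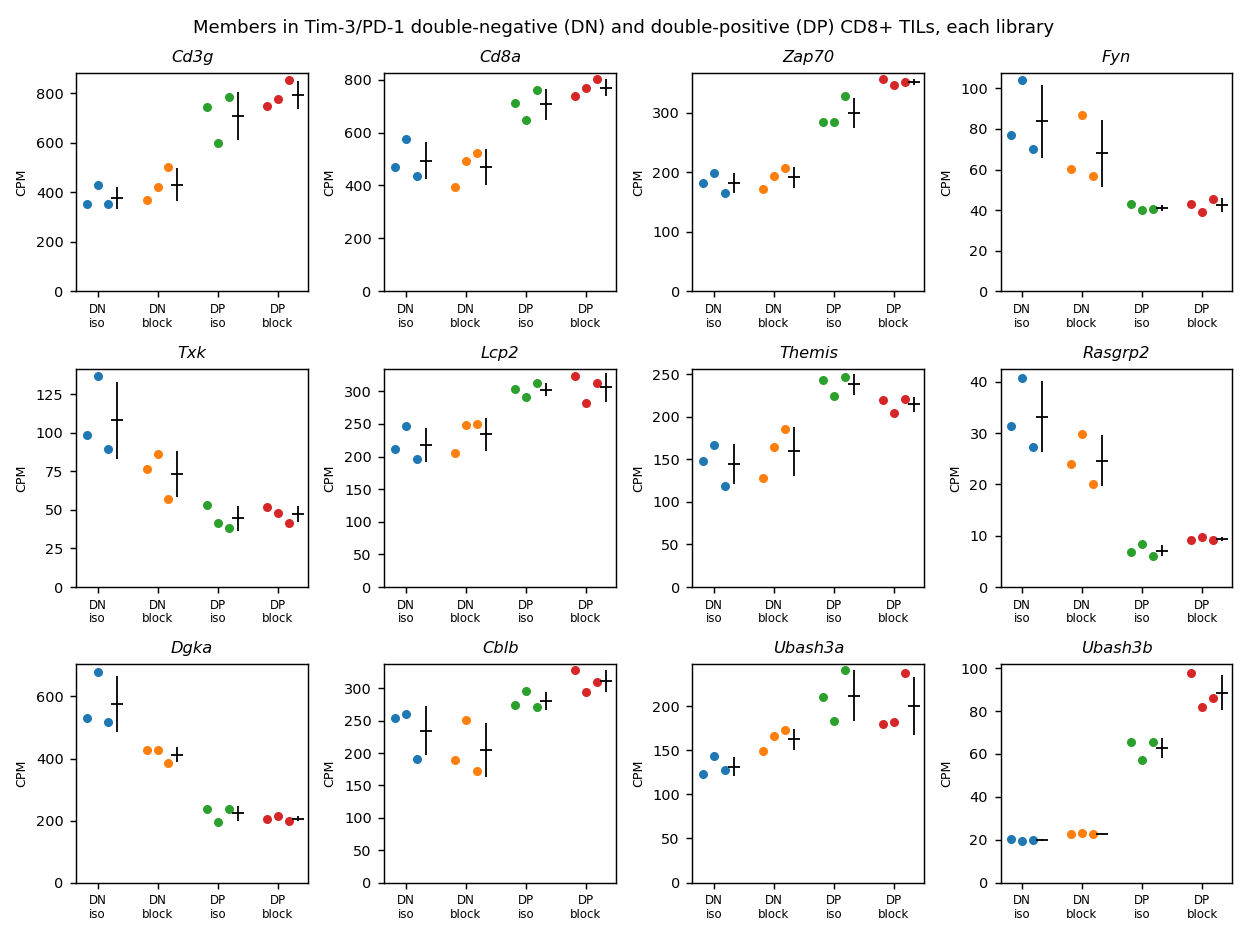
CPM in each of the 12 treatment libraries for 12 listed genes that passed at least 1 comparison of DP with DN cells. Each point is 1 library and the bar beside each group is its mean ± SD; Ubash3b is higher and Rasgrp2 and Dgka are lower in DP libraries under both treatments.

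The same comparison under blockade used 6 other libraries. There 17 of 43 genes passed, 12 higher and 5 lower in DP cells, which was 39.5% of the list against 27% of all genes tested (14.4% higher and 12.5% lower). By class, 6 activating genes rose and 4 fell, 4 negative genes rose and 1 fell, and 2 mixed genes rose. The list's median was -0.044, the same as the -0.044 of all genes. The count fell to 12 without DP blockade library 2.

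Ubash3b was 22.7, 23.03 and 22.7 CPM in DN and 97.9, 81.9 and 86.1 CPM in DP blockade libraries, a difference of 1.96 ± 0.11 (SE, adjusted p = 1.11e-06). Rasgrp2 was 23.97, 29.9 and 20.1 CPM in DN and 9.16, 9.78 and 9.09 CPM in DP blockade libraries, a difference of -1.40 ± 0.20 (SE, adjusted p = 0.000314). Dgka was 427, 427 and 384 CPM in DN and 206, 214 and 199 CPM in DP blockade libraries, a difference of -0.999 ± 0.12 (SE, adjusted p = 7.27e-05). These were again the 3 largest differences of the list, with no overlap between the groups. Of the other genes that passed under both treatments, Cd3g rose by 0.88, Zap70 by 0.87, Cd8a by 0.71, Sh2d2a by 0.69, Cd3e by 0.58, Themis by 0.43 and Lcp2 by 0.38. Fyn, Txk and Nfatc3 had log2 differences of -0.67, -0.63 and -0.48. Of the 19 alternatives run under blockade, the call was lost in 7 for Themis, in 6 for Nfatc3, in 4 for Txk, in 2 for Fyn and in 1 for Lcp2.

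Passing under blockade but not under isotype were Cd3d, Ptpn6, Dgkz and Cblb, all higher in DP cells. Dgkz encodes diacylglycerol kinase zeta, and was 30.6, 45.04 and 36.7 CPM in DN and 70.3, 54.1 and 63.1 CPM in DP libraries, a difference of 0.74 ± 0.14 (SE, adjusted p = 0.00243). Cblb was 189, 251 and 173 CPM in DN and 329, 295 and 309 CPM in DP libraries, a difference of 0.61 ± 0.14 (SE, adjusted p = 0.00814). Cd3d was 355, 459.9 and 429 CPM in DN and 576, 574 and 588 CPM in DP libraries, a difference of 0.48 ± 0.11 (SE, adjusted p = 0.00702). Each was higher in every DP than in every DN blockade library. Ptpn6 was 241, 351 and 312 CPM in DN and 393, 443 and 466 CPM in DP libraries, a difference of 0.53 ± 0.16 (SE, adjusted p = 0.0294), and this call was lost under 4 of 19 alternatives. Ptpn6 was high in the pDC-like and myeloid-like single cells, at 422 and 328 CPM. In bulk, 10 of 11 pDC markers were lower and 5 of 15 myeloid markers higher in DP blockade libraries, and their part in the Ptpn6 difference was not tested.

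The lists under the 2 treatments, which share no library, had 8 genes in common among those higher in DP cells, or 80.0% of the isotype list and 66.7% of the blockade list. Of those lower, 5 were in common, 45.5% of the isotype list and 100% of the blockade list. Without DN blockade library 2, or without DP blockade library 2, the blockade calls of Fyn, Txk and Nfatc3 were all lost, which left 2 in common, Dgka and Rasgrp2. No listed gene passed in opposite directions. The overlap of calls over all genes tested was not computed, so these shares have no background beside them. Bcl10, Cbl, Csk, Nck1, Prkcq and Sla2 passed as lower, and Cd6 and Ubash3a as higher, under isotype alone. Whether these genes differed between treatments was tested by the interaction given below, which no gene passed. Over all bulk comparisons, 16 of the 43 genes never passed, among them Lck, Lat, Plcg1, Vav1, Cd247 and Ptprc. The matching share of all genes was not computed.

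**Figure D3:**
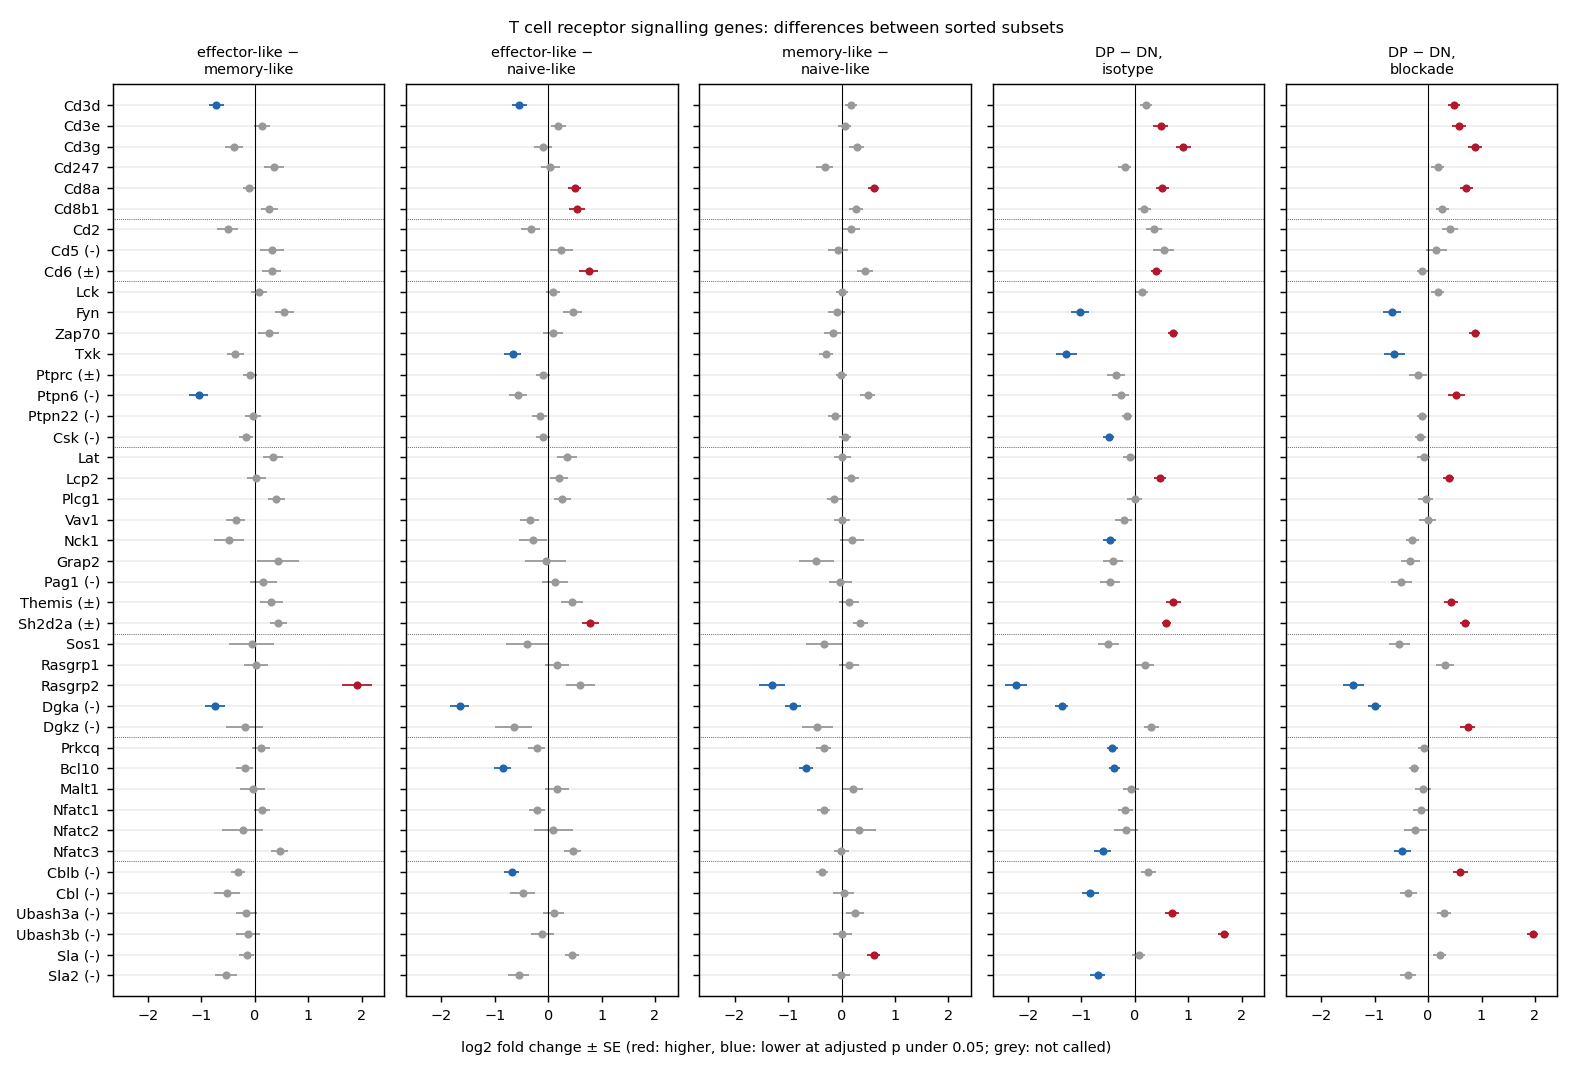
Log2 differences (± SE, horizontal axis) of the 43 genes, ordered by role, in the 3 subset comparisons and in DP against DN cells under each treatment; red and blue mark genes that passed as higher or lower, and grey those that did not. Rasgrp2, Dgka and Ubash3b lie farthest from 0 in both DP against DN panels.

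Of 58 other genes of the pathway, 7 rose and 15 fell in DP against DN cells under isotype, and 4 rose and 10 fell under blockade. These were 37.9% and 24.1% of the 58, beside 29.9% and 27% of all genes tested. The inositol trisphosphate receptor gene Itpr2 averaged 40.0 CPM in DP and 103 CPM in DN isotype cells, a log2 difference of -1.36 ± 0.17 (SE, adjusted p = 7.59e-05). Rasa3, a GTPase-activating protein that switches off Ras and Rap, averaged 92.9 and 262 CPM, a difference of -1.49 ± 0.14 (SE, adjusted p = 9.17e-06). Dok2, an adaptor that dampens signalling, averaged 275 and 119 CPM, a difference of 1.20 ± 0.14 (SE, adjusted p = 4.04e-05). In the subset experiment 1 of the 58 passed between effector-like and memory-like cells (1.72%, against 1.91% of all genes), 5 in effector-like against naive-like cells (8.62%, against 6.42%), and 3 between memory-like and naive-like cells (5.17%, against 5.51%).

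Genes known to be induced soon after TCR engagement formed a separate list of 16. Of these, 8 rose and 0 fell in DP cells under each treatment. Tnfrsf9, which encodes the costimulatory receptor 4-1BB, averaged 451 CPM in DP and 31.8 CPM in DN isotype cells, a difference of 3.82 ± 0.26 (SE, adjusted p = 1.09e-06). Nr4a2, which encodes an orphan nuclear receptor, averaged 163 and 54.4 CPM, a difference of 1.58 ± 0.14 (SE, adjusted p = 5.46e-06). In the subset experiment 15 of the 16 were tested. In effector-like cells 4 rose and 2 fell against naive-like cells, and 1 rose and 1 fell against memory-like cells. These were 40.0% and 13.3% of the 15, against 6.42% and 1.91% of all genes tested. In memory-like cells 4 rose and 0 fell against naive-like cells, or 26.7% of the 15, against 5.51% of all genes tested. The gene that fell in effector-like against memory-like cells was Xcl1, a chemokine gene, with a log2 difference of -4.16 ± 0.66 (SE, adjusted p = 0.00275). Nr4a1 averaged 814 CPM in effector-like against 422 CPM in naive-like cells, a difference of 0.95 ± 0.17 (SE, adjusted p = 0.00272).

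Activators and negative regulators were also summed in each library, as a description with no test. The summed CPM of the 13 negative genes relative to the 26 activating genes lay between 46.3 and 49.6% in DN cells given isotype and between 37.2 and 42.0% in those given blockade. In DP cells it lay between 34.6 and 38.4% under isotype, and between 33.3 and 34.2% under blockade. In the subset experiment the share spanned 45.4 to 54.2% for naive-like cells, 37.3 to 47.1% for memory-like cells and 32.9 to 35.6% for effector-like cells. Without Dgka, the ranges lay closer together, at 36.2 to 40.1% for DN cells given isotype, 31.0 to 35.2% for those given blockade, and 31.4 to 35.1% and 30.5 to 31.3% for the respective DP cells. In the subset experiment they were then 30.5 to 37.1% for naive-like, 30.9 to 39.9% for memory-like and 28.7 to 31.2% for effector-like cells.

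The effect of blockade was compared within each sorted population. In DN cells, edgeR called 0 of the 43 genes, against 1.12% of all genes tested, with 8 at an unadjusted p under 0.05 and 1 called by DESeq2. Dgka came nearest. It was 530.2, 679.6 and 517 CPM in isotype and 427, 427 and 384 CPM in blockade DN libraries, values that did not overlap, and the log2 difference was -0.48 ± 0.11 (SE, adjusted p = 0.0670). DESeq2 called Dgka, as did edgeR without the low-count filter or without DN isotype library 3. Txk was 98.2, 136 and 89.2 CPM in isotype and 76.2, 86.4 and 57.3 CPM in blockade libraries, a difference of -0.56 ± 0.19 (SE, adjusted p = 0.182). All 43 intervals (95%) lay within 1 log2 unit of 0, and 34 lay within 1.5-fold, the outermost bounds being -0.97 for Txk and 0.62 for Nfatc2.

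In DP cells edgeR also called 0 of the 43, against 0.0629% of all genes tested, with 5 at an unadjusted p under 0.05 and 2 called by DESeq2 (Ubash3b and Cd6). Ubash3b was 65.5, 57.4 and 65.7 CPM in isotype and 97.9, 81.9 and 86.1 CPM in blockade DP libraries, without overlap, a difference of 0.50 ± 0.10 (SE, adjusted p = 0.182). Cd6 was 467, 565 and 490.3 CPM in isotype and 400.0, 377 and 353 CPM in blockade libraries, also without overlap, a difference of -0.43 ± 0.098 (SE, adjusted p = 0.284). All 43 intervals lay within 1 log2 unit of 0 and 36 within 1.5-fold, from -0.81 for Cd5 to 0.84 for Rasgrp2.

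The difference between the blockade effects in DP and DN cells was tested as an interaction. edgeR called 0 of the 43 genes and 0.00% of all genes tested, with 8 of the 43 at an unadjusted p under 0.05 and 0 called by DESeq2. The smallest adjusted p belonged to Cd6, with a difference of -0.51 ± 0.14 (SE, adjusted p = 0.309). The intervals were wider here: 39 lay within 1 log2 unit of 0 and 17 within 1.5-fold, from -1.004 for Cd5 to 1.43 for Rasgrp2. Transcripts of the blood list also differed with treatment. Their summed level was between 2708 and 5310 CPM for DN cells given isotype and between 0.253 and 118 CPM for those given blockade, and 5 of 5 tested passed as lower in DN cells and 4 of 5 in DP cells, a difference whose part in the values above was not tested. Of the 16 early TCR-induced genes, 2 (12.5%) rose and 0 fell in DN cells under blockade, against 1.12% of all genes tested. Egr1 rose by 0.59 ± 0.099 (SE, adjusted p = 0.0231) and Tnfrsf4 by 1.47 ± 0.30 (SE, adjusted p = 0.0415). Tnfrsf4 is also on the list of CD4+ T cell markers, of which 1 of 7 was higher in DN cells under blockade. Transcripts of the blocked receptors rose in the same cells, Pdcd1 by 1.69 (adjusted p = 0.0166) and Havcr2 by 2.72 (adjusted p = 0.00713).

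**Figure D4:**
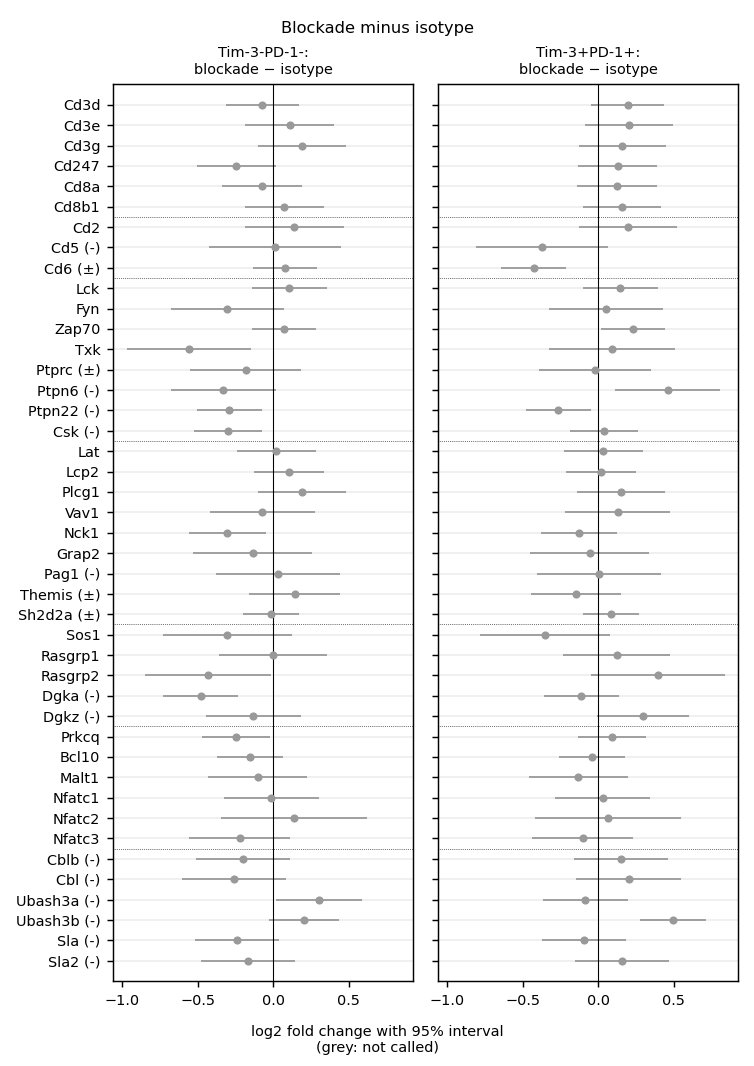
Log2 differences of the 43 genes between blockade and isotype in DN and in DP cells, with 95% intervals. None passed the test in either population, and every interval lies within 1 log2 unit of 0.

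The single-cell libraries held 2950 isotype and 2502 blockade DN cells after filtering, with medians of 3652 and 3839.5 unique molecular identifiers (UMIs, 1 per captured transcript) per cell. The suffix of each barcode was taken to give the library, which the file does not state, and 7 barcodes occurred in both libraries. No doublets were removed. With 1 library per treatment there was no test, and intervals cover counting error only. Clusters were made without the 43 genes. Of 13 clusters, 10 were T cell clusters, which were left unnamed, and 3 were tumour or stroma-like (59 cells), pDC-like (36 cells) and myeloid-like (44 cells). The CD3 delta transcript Cd3d was 30.7 CPM in the tumour or stroma-like cluster, whose cells should lack it, against 1050 to 1681 CPM in the T cell clusters. It was higher in the pDC-like and myeloid-like clusters, at 100.5 and 105 CPM, and Cd8b1 reached 334 CPM in the pDC-like cluster.

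Over all kept cells, 30 of the 43 genes had a blockade to isotype ratio above 1 and 13 below, with a median log2 ratio of 0.11 beside 0.16 over all genes. In the T cell clusters alone, 34 were above 1 and 9 below, with a median of 0.22 beside 0.13 over all genes. The 3 other clusters held 8.26% of the isotype and 16.99% of the blockade UMIs. Sla2, Sh2d2a, Malt1 and Cblb were at least 1.5-fold higher, where 17.3% of all genes with 50 UMIs or more were. Rasgrp2 was the gene at least 1.5-fold lower, where 4.21% of all genes were. Rasgrp2 was 154 CPM (95% interval 147 to 161) in isotype and 78.2 CPM (73.4 to 83.3) in blockade cells. Sla2 was 42.8 CPM (39.2 to 46.6) in isotype and 71.1 CPM (66.5 to 76.0) in blockade cells. Ubash3a was 22.1 CPM (19.6 to 24.9) and 29.8 CPM (26.8 to 32.96), and Ubash3b 15.01 CPM (12.9 to 17.3) and 19.6 CPM (17.2 to 22.2).

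The makeup of the clusters differed between the libraries. Cluster 4, led by Dapl1 and Lef1, held 821 isotype and 45 blockade cells, and cluster 1, led by haemoglobin genes, held 133 and 617. Rasgrp2 was highest in cluster 4, at 232 CPM, and lowest in cluster 0, led by interferon-induced Ifit genes, at 53.1 CPM. Within the 5 T cell clusters with at least 100 cells of each library, a choice made after seeing the data, the log2 ratio of Rasgrp2 ran from -0.46 to 0.39, against -0.98 over all cells. The ratio of Txk ran from -0.28 to 0.27 there, against -0.49 over all cells, and that of Dgka from -0.22 to 0.16, against -0.36. Sla2 ran from -0.27 to 0.78 there, Sh2d2a from -0.18 to 0.54, Malt1 from -0.61 to 0.84 and Cblb from -0.30 to 0.57. Ubash3a ran from -0.48 to 0.71. Ubash3b ran from -0.58 to 0.18, leaving out a cluster with 0 UMIs in a library. Of the 43 genes, 7 were higher under blockade in all 5 clusters, among them Cd3d, Cd3e, Cd3g and Cd247. Plcg1 was the 1 gene lower in all 5, on as few as 4 UMIs.

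Across T cell clusters the coreceptor gene Cd8b1 varied most, from 202 CPM in cluster 7, led by Klra receptor genes, to 1713 CPM in cluster 1, an 8.46-fold range. Sla2 varied 5.49-fold, Sh2d2a 5.22-fold, Themis 4.97-fold and Txk 4.82-fold. Txk and Cd8b1 were opposed in cluster 1, where Txk was lowest at 77.2 CPM. Themis, Lat, Cd8a and Ubash3a were, like Cd8b1, lowest in cluster 7 and highest in cluster 1. Ubash3a ran from 16.01 to 56.6 CPM, and Ubash3b from 8.34 CPM in cluster 5 to 26.3 CPM in cluster 9. Vav1, an exchange factor that acts on the actin cytoskeleton, varied least, by 1.43-fold.

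**Figure D5:**
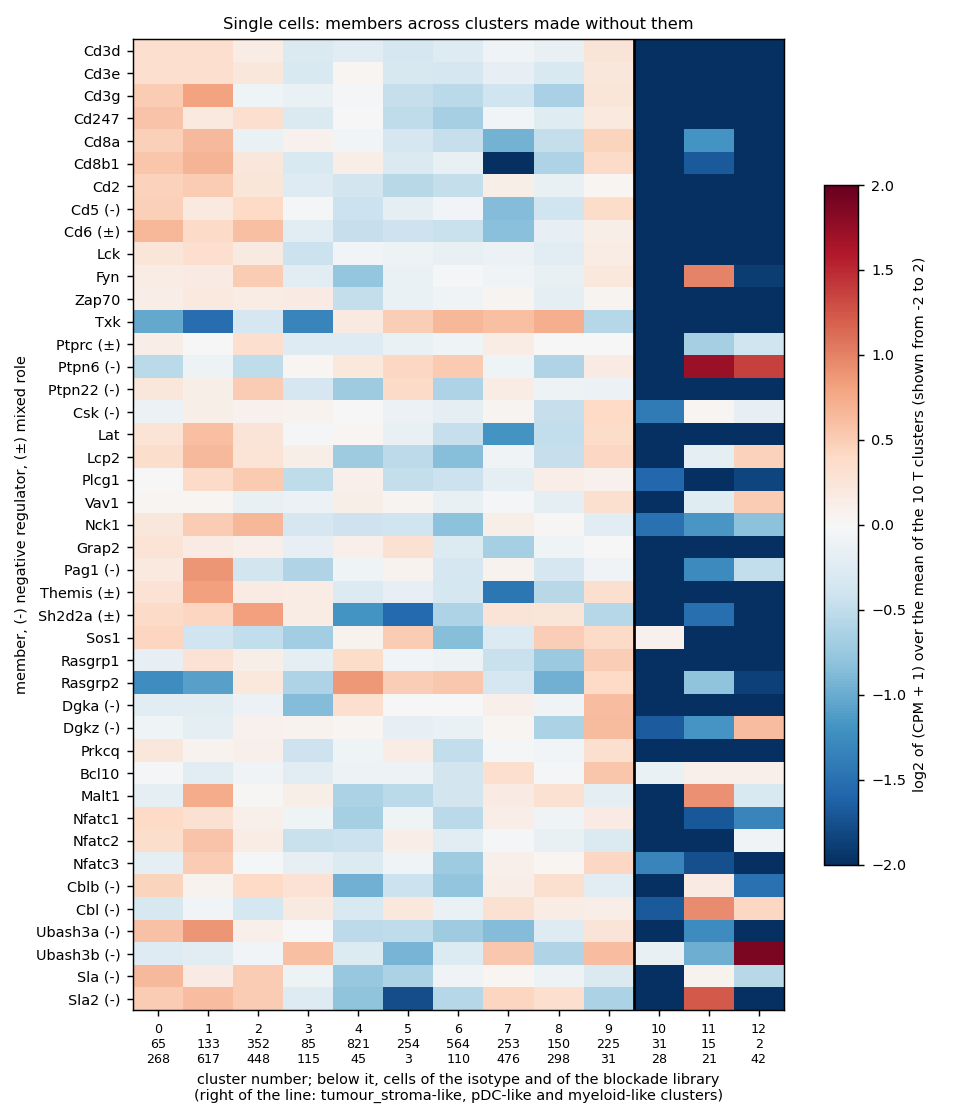
Log2 of CPM + 1 of the 43 genes in each of the 13 single-cell clusters (columns, with the cells of each library below), relative to the mean of the 10 T cell clusters; red is above and blue below that mean. Cd8b1, Sla2, Sh2d2a, Themis and Txk vary most among T cell clusters and Vav1 least.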

How the data were processed

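Bulk RNA was amplified with an adapted SMART-Seq2 protocol, per the labels' protocols, and single cells with droplet 3′ chemistry. The authors deposited expected counts and a normalized signal per gene for bulk libraries, with TopHat, RSEM and DESeq named in the submitters' processing notes without versions, and UMI counts per cell made with Cell Ranger 1.3, per the submitters' processing notes. These notes name the builds mm9 and mm10. The deposited signal of each gene was proportional to its expected count within each library for 100% of the genes checked.

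Expected counts were rounded to whole numbers (22.6% of subset and 30.5% of treatment values were not whole). Low genes were removed with filterByExpr, libraries were scaled by TMM, and edgeR 4.0.16 quasi-likelihood tests were fitted over all libraries of an experiment, with Benjamini-Hochberg adjustment over all genes and a threshold of 0.05. CPM used the same scaling. The script was tested on simulated data: at a 2-fold change it recovered, of the changed genes, 17.2% for effector-like against naive-like (11777 genes), 20.8% for memory-like against naive-like (11795 genes), 23.2% for effector-like against memory-like (11834 genes), 45.9% for blockade in DN cells (12534 genes) and 57.7% for DP against DN isotype (12533 genes). Alternatives were DESeq2 1.42.0, other size factors, no filter, Rn45s left out, replicate blocks, the compared groups alone and each library left out. Titles of DN isotype and DN blockade libraries share replicate numbers, and same-numbered libraries deviated together (correlations 0.153, 0.464 and 0.223). The numbers in their library names differ, however, and the labels do not state that these libraries were paired. An alternative fit with the title number as a block called 0 listed genes in that comparison, as the fit without the block did. The main tests of DP against DN cells used no block.

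Cells under 500 genes or above 10% mitochondrial UMIs were removed, and the rest were clustered with scanpy 1.11.5 (2000 variable genes, 30 components, Leiden resolution 1) without the 43 genes. All 43 genes may be named, with every library's value for those that passed a comparison, and up to 4 genes per comparison from the other lists; some items these rules would name are not reported here. The genes and lists were chosen with earlier results of these data known. Promoters came from RefSeq.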

Additional observations from a re-analysis of the deposited data

Results flagged for a closer look

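Among the naive-like and memory-like groups, 5 of 86 sets of a gene's values in a group held a library set apart from the others by a gap test, and chance gives about 1 in 20. Cd5 was 169.6 CPM in naive-like library 4, against 76.3 to 108 CPM in the other naive-like libraries. Fyn was highest in the same library, at 101.5 CPM against 63.8 to 75.2 CPM. Nck1 was 119 CPM in memory-like library 2, against 57.8 to 74.7 CPM in the others, and Nfatc1 was lowest in that library, at 112 CPM against 132 to 139 CPM. Lck was lowest in memory-like library 3, at 889.8 CPM against 1095 to 1174 CPM. None of these 5 genes passed a subset comparison.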

How the results depend on the processing

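Of 56 calls of listed genes over the bulk comparisons, 39 held under every alternative run and 0 results changed direction. With the replicate block by title number, the called genes numbered 2 for effector-like against memory-like, 5 for effector-like against naive-like, 22 for DP against DN under isotype and 15 under blockade. With the replicate block by the number in the library name they were 23 under isotype, 19 under blockade and 4 for memory-like against naive-like. Deviations of DN and DP libraries of a treatment correlated at 0.019 to 0.380 for the same number in the name. For the same title number they correlated at -0.382 to 0.024. The labels do not state that either number pairs the libraries. DESeq2 called 8 genes for memory-like against naive-like, against 5 by edgeR, 1 (Dgka) for blockade in DN cells and 2 for blockade in DP cells. Without the low-count filter 1 gene (Dgka) was called for blockade in DN cells. Leaving out 1 library at a time gave 2 to 4 genes for effector-like against memory-like, 6 to 11 for effector-like against naive-like, 5 to 6 for memory-like against naive-like, 20 to 23 and 12 to 19 for DP against DN under isotype and blockade, 0 to 1 for blockade in DN cells and 0 for blockade in DP cells and for the interaction. In single cells, the log2 ratio of Cd8b1 changed sign, from -0.042 over all kept cells to 0.091 in T cell clusters and 0.13 after thinning each cell to 2500 UMIs; Lck, Cd5 and Plcg1, whose intervals over all kept cells included 0, were also below 0 over all kept cells and above 0 in T cell clusters. Ubash3b went from 0.38 over all kept cells to 0.22 in T cell clusters and -0.024 after thinning. Its interval included 0 in the T cell clusters and after thinning. That thinning left out 555 isotype and 0 blockade cells. Of 129 alternative single-cell values, 42 moved beyond their counting interval; the cause was not tested.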

Other observations

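The effector-like against naive-like and the DP against DN comparisons come from different libraries. Of the 9 listed genes that passed the first, 6 also passed DP against DN under isotype, Cd8a, Cd6 and Sh2d2a as higher and Txk, Bcl10 and Dgka as lower in both. Under blockade Cd6 and Bcl10 did not pass, with log2 differences of -0.10 and -0.27. The share of all genes that passed both comparisons was not computed. Cd3d and Cblb were lower in effector-like than in naive-like cells, with log2 differences of -0.54 and -0.69, but higher in DP than in DN cells under blockade, with differences of 0.48 and 0.61. Rasgrp2 rose by 1.91 from memory-like to effector-like cells and was lower in DP than in DN cells under isotype, with a difference of -2.22.

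Blood transcripts had opposite patterns in the bulk and single-cell DN libraries. In bulk they were at 2708 to 5310 CPM under isotype and 0.253 to 118 CPM under blockade, while the single-cell cluster led by haemoglobin genes held 133 isotype and 617 blockade cells. The cause was not tested.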
